A study of Homo sapiens with 6 samples.

Results

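The ATF4 and CHOP stress response genes described here are 10 named genes of the integrated stress response, found by gene symbol among the 35750 genes of a table made from T98G cells. All 10 were listed, and all 10 were tested. T98G is an established human glioblastoma cell line, grown per the labels in DMEM with 10% fetal bovine serum. There were 3 libraries labelled shControl, with a control short hairpin RNA, and 3 labelled shSLC1A5, with a short hairpin RNA against SLC1A5, a sodium-dependent carrier that brings glutamine and other neutral amino acids into the cell. The labels name no other agent or allele, and give neither the hairpin sequences nor whether the cells were a pool or a clone. Whether replicates were separate cultures is not labelled, so each p-value refers to the spread among libraries, and that spread may be technical.

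In the integrated stress response, kinases that sense amino acid shortage, misfolded protein, double-stranded RNA or heme deficiency phosphorylate the translation factor eIF2. General translation falls while the mRNA of the transcription factor ATF4 is translated more, so ATF4 activity is set largely after transcription and need not follow its mRNA level. ATF4 binds DNA as a dimer with other bZIP proteins, among them C/EBP family members and CHOP, the product of DDIT3, at a composite site whose parts resemble a C/EBP and an ATF half-site. Its targets include genes for amino acid synthesis, amino acid import and tRNA charging. Amino acid supply itself was not measured here.

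The composite site is shown here because it was found near the starts of 3 of the 10 genes and of 16 other pathway genes. Printed are the sites of those 3 and of 6 of the 16. The 6 are those among the genes named later for the largest changes in their lists. The search was for TGATGNAA on both strands, in RefSeq windows (GRCh38.p14) from 250 bases before to 50 after each annotated start. Of the 10 genes, 9 had at least 1 window, and NUPR1 was the other. Each sequence is 30 bases, 5′ to 3′ on the strand that carries the match, with the match in capitals.

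ASNS, chr7:97872458-97872487, minus strand: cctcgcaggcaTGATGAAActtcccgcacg
CEBPG, chr19:33374060-33374089, plus strand: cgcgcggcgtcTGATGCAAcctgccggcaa
CHAC1, chr15:40953251-40953280, minus strand: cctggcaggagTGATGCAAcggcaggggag
ATF3, chr1:212565205-212565234, plus strand: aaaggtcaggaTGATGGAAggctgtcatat
GARS1, chr7:30594834-30594863, minus strand: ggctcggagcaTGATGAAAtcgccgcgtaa
HERPUD1, chr16:56931955-56931984, minus strand: tgggcacgggcTGATGCAAcccgccgcgtc
MARS1, chr12:57488053-57488082, minus strand: gaatccctcgcTGATGCAAccggaaccggc
PPP1R15B, chr1:204412026-204412055, minus strand: cccgccccggcTGATGCAAcctcacgctgc
SLC1A4, chr2:64989381-64989410, minus strand: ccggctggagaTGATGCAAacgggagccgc

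In ASNS and CEBPG the match lies on the gene's own strand, 68 and 42 bases before 1 of the 2 RefSeq starts listed for each. In CHAC1 it lies on the opposite strand, 209 bases before the 1 RefSeq start listed. All 3 sites lie inside the gene spans given further on. Those spans are as deposited by the authors, and they begin upstream of these RefSeq starts. A match is a description of the sequence, not a measured binding site, and a window without one says only that these letters are not in it.

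Each library held 59327548 to 70802167 counts. Of the 35750 genes, 11841 averaged 1 FPKM or more (fragments scaled to gene length and library size, as deposited) and were tested with edgeR, of which 39.2% differed at an adjusted p under 0.05, 19.0% lower and 20.2% higher in shSLC1A5. The targeted gene SLC1A5 had 95.8 FPKM in shControl and 87.9 in shSLC1A5, a log2 fold change of -0.14 or a change of -9.02%. The directions here are therefore those of the libraries labelled shSLC1A5. Across 11800 tested genes, which are not independent replicates, fold change followed transcript GC content with a Spearman correlation of 0.49. A second edgeR fit, with offsets for GC content and transcript length and called the GC-corrected fit, is therefore given where it changes a result. In it the log2 fold change of SLC1A5 was -0.35. Of 10 glioma markers, 3 averaged 1 FPKM or more, VIM at 336 to 397, CD44 at 191 to 210 and SOX9 at 7.54 to 10.2. NES, SOX2, CHI3L1, GFAP, S100B, OLIG2 and FABP7 averaged less, with GFAP at 0.0327 or less. SOX2 was near the floor in both groups, with 7 to 10 counts in the shControl libraries and 0 in all shSLC1A5 libraries. The summed level of the 7 B cell and plasma cell markers ran from 0.233 to 0.554 FPKM in shControl, where IGHM, JCHAIN and MS4A1 had 0 counts, and from 5.996 to 11.05 in shSLC1A5. IGHM was at 4.86, 2.66 and 4.89 FPKM in the shSLC1A5 libraries and IGKC at 4.44, 2.66 and 3.38. The summed level of the 8 neutrophil markers ran from 0.114 to 0.277 FPKM in shControl, where CXCR2, FCGR3B and S100A12 had 0 counts. It was 67.1, 0.427 and 0.559 in shSLC1A5 replicates 1 to 3. In replicate 1 S100A8 was at 32.2, S100A9 at 18.1 and S100A12 at 13.3, while ELANE was at 0.317. MPO had 0 counts in all libraries of both groups. Of 5 red cell markers 4 were found, with sums up to 0.0667 FPKM in shControl and of 4.73, 0.297 and 0.0783 in shSLC1A5 replicates 1 to 3. ALAS2 made up 4.71 of the 4.73 in replicate 1, where HBA1 and HBA2 had 0 counts. Their part in the results below was not tested, and in bulk RNA fewer cells of a type and less RNA per cell cannot be told apart.

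Of the 10 response genes, 7 fell and 1 rose in shSLC1A5, against 19.0% and 20.2% of all tested genes. ASNS, TRIB3, DDIT3, NUPR1, CEBPG, ATF5 and ATF4 fell, CEBPB rose, and CHAC1 and STC2 did not pass the threshold. The median log2 fold change of the 10 was -0.25, against -0.01 for all tested genes. Without shSLC1A5 replicate 1, the library with the highest neutrophil marker sum, 7 fell and 1 rose, and the median was -0.25. In the GC-corrected fit, which called 25.9% of all tested genes, 14.8% lower and 11.1% higher, 8 of the 10 fell and 0 rose. The FPKM ranges of the 2 groups did not overlap for any of the 10, a separation that 49.6% of all tested genes showed, so the count is read against that share.

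**Figure D1:**
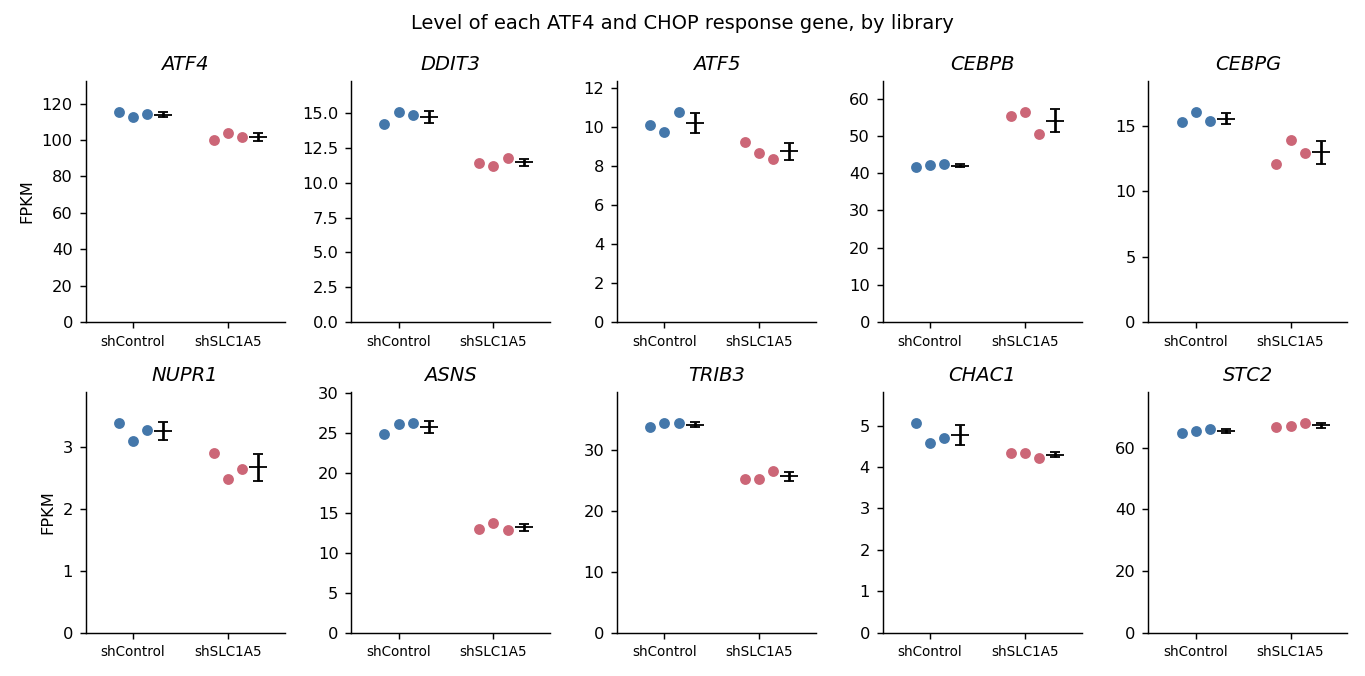
FPKM of each of the 10 genes in each library, with every vertical axis starting at 0; points are libraries, 3 per group, and the black marks are means with SD. ASNS shows the widest gap, from 24.9 to 26.2 in shControl to 12.9 to 13.7 in shSLC1A5, while the points of STC2 and CHAC1 lie close together.

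ATF4 (ENSG00000128272, chromosome 22, 39519672 to 39522683, plus strand) was the most abundant of the 10 in both groups. Its FPKM was 115, 113 and 114 in shControl and 99.9, 104 and 101 in shSLC1A5. The drop was small and the groups stood clear of each other. Its log2 fold change was -0.18 (SE 0.0205, edgeR adjusted p = 7.06e-05), a level 11.5% lower, and -0.27 in the GC-corrected fit. In shControl 97.9% of tested genes had a lower FPKM than ATF4. Its 4 processed pseudogenes held 15 to 241 counts over the 6 libraries together, against 22110 to 24012 for ATF4 in each library.

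DDIT3 (ENSG00000175197, chromosome 12, 57516588 to 57521737, minus strand) encodes CHOP, a C/EBP-like protein that pairs with ATF4 and is known for its part in stress-induced cell death. Its FPKM was 14.2, 15.04 and 14.9 in shControl and 11.4, 11.2 and 11.7 in shSLC1A5. All shSLC1A5 libraries were lower, and the groups lay far apart relative to their spread. It fell by 0.37 on the log2 scale (SE 0.0621, edgeR adjusted p = 8.59e-04), a level 22.7% lower. The 95% confidence interval of its log2 fold change was -0.51 to -0.23. MARS1 and MBD6, as placed in GENCODE 29, lie on the opposite strand and overlap the deposited span of DDIT3 by 982 and 1028 bases. The strand setting of the counts is not given in the sources used here, so some reads may belong to either gene. MARS1 fell by 0.42, and MBD6 rose by 0.37, a call that was lost in the GC-corrected fit (edgeR adjusted p = 0.313).

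ATF5 (ENSG00000169136, chromosome 19, 49928702 to 49933935, plus strand) is a bZIP factor whose translation is also controlled through eIF2. Its FPKM was 10.1, 9.76 and 10.8 in shControl and 9.25, 8.70 and 8.36 in shSLC1A5, with a small gap between the groups. It fell by 0.23 on the log2 scale (SE 0.0602, edgeR adjusted p = 0.0111), and by 0.40 in the GC-corrected fit. NUP62 overlaps it by 1062 bases on the opposite strand and rose by 0.13, a call that was lost in the GC-corrected fit, with a log2 fold change of -0.02 (edgeR adjusted p = 0.696).

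The 2 C/EBP genes of the set went in opposite directions. CEBPG (ENSG00000153879, chromosome 19, 33373685 to 33382686, plus strand), a short C/EBP protein without an activation domain that pairs with ATF4, was at 15.3, 16.0 and 15.4 FPKM in shControl and 12.1, 13.9 and 12.9 in shSLC1A5. It fell by 0.28 on the log2 scale (SE 0.0485, edgeR adjusted p = 0.00117). It is 1 of the 3 genes of the set with a match to the composite site.

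CEBPB (ENSG00000172216, chromosome 20, 50190830 to 50192668, plus strand), an activator of inflammatory and metabolic genes that is itself a target of ATF4, was at 41.6, 42.2 and 42.4 FPKM in shControl and 55.4, 56.3 and 50.6 in shSLC1A5. It was the only one of the 10 to rise, by 0.35 on the log2 scale (SE 0.0423, edgeR adjusted p = 9.67e-05), a level 27.4% higher. The rise was lost in the GC-corrected fit, with a log2 fold change of 0.02 (edgeR adjusted p = 0.696). Its longest transcript had the highest GC content of the 10, 66.2%, against a median of 48.0% over tested genes. CEBPB was highest in shSLC1A5 replicate 2, where the neutrophil markers summed to 0.427 FPKM. The B cell and plasma cell markers summed to 5.996 FPKM in that library, against 0.233 to 0.554 in shControl. The log2 fold change of CEBPB without shSLC1A5 replicate 1 was 0.33. Whether transcripts of other cells contributed to its level was not tested.

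NUPR1 (ENSG00000176046, chromosome 16, 28532708 to 28538974, minus strand), a small nuclear protein induced by stress, was the least abundant of the 10. Its FPKM was 3.38, 3.10 and 3.28 in shControl and 2.90, 2.48 and 2.64 in shSLC1A5, from 1037 to 1337 counts per library. It fell by 0.30 on the log2 scale (SE 0.0798, edgeR adjusted p = 0.0133). The call was lost without shControl replicate 1 (edgeR adjusted p = 0.0576) and without shSLC1A5 replicate 2 (edgeR adjusted p = 0.0590).

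Among the effector genes, ASNS (ENSG00000070669, chromosome 7, 97851677 to 97872542, minus strand) changed most. It encodes asparagine synthetase, which makes asparagine with nitrogen taken from glutamine. Its FPKM was 24.9, 26.1 and 26.2 in shControl and 13.0, 13.7 and 12.9 in shSLC1A5, from 8540 to 9037 counts in shControl and 4746 to 5097 in shSLC1A5. The counts of the groups stood apart even before scaling to depth. It fell by 0.98 on the log2 scale (SE 0.0347, edgeR adjusted p = 1.12e-08), a change of -49.2% (95% confidence interval -51.8% to -46.4%), and ranked 44 from the lowest among the 11841 tested genes. A listed transcript on the same strand (AC079781.5 in GENCODE 29) overlaps 20855 of the 20866 bases of the ASNS locus and had a mean of 0.921 FPKM. The processed pseudogene ASNSP3 had 8 counts over the 6 libraries together.

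TRIB3 (ENSG00000101255, chromosome 20, 362835 to 397559, plus strand), a pseudokinase that is induced by ATF4 and CHOP and holds back their activity, was at 33.8, 34.4 and 34.4 FPKM in shControl and 25.2, 25.4 and 26.6 in shSLC1A5. The libraries within each group were close to one another and the groups far apart. It fell by 0.42 on the log2 scale (SE 0.0328, edgeR adjusted p = 3.47e-06), a level 25.5% lower, and by 0.62 in the GC-corrected fit.

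CHAC1 (ENSG00000128965, chromosome 15, 40952962 to 40956512, plus strand) encodes an enzyme that breaks down glutathione and is a common readout of ATF4 and CHOP. Its FPKM was 5.06, 4.59 and 4.69 in shControl and 4.34, 4.33 and 4.22 in shSLC1A5. Each shSLC1A5 library lay below each shControl library, but shControl replicate 1 was high and the gap to the other shControl libraries was small. The log2 fold change was -0.17 (SE 0.0967, edgeR adjusted p = 0.201), with a 95% confidence interval of -0.38 to 0.05. In the GC-corrected fit it fell by 0.40 (edgeR adjusted p = 0.0113). Its counts, 640 to 745 per library, were the lowest of the 10.

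STC2 (ENSG00000113739, chromosome 5, 173314713 to 173329503, minus strand) encodes a secreted glycoprotein that is induced in the unfolded protein response. Its FPKM was 64.8, 65.2 and 65.9 in shControl and 66.6, 67.0 and 67.9 in shSLC1A5. Its log2 fold change was 0.03 (SE 0.0171, edgeR adjusted p = 0.241), with a 95% confidence interval of -0.01 to 0.06, that is, from -0.753% to 4.58%. The sign depends on the scaling: it was at -0.01 in the GC-corrected fit and rose by 0.08 with quantile normalization (limma adjusted p = 0.00215).

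**Figure D2:**
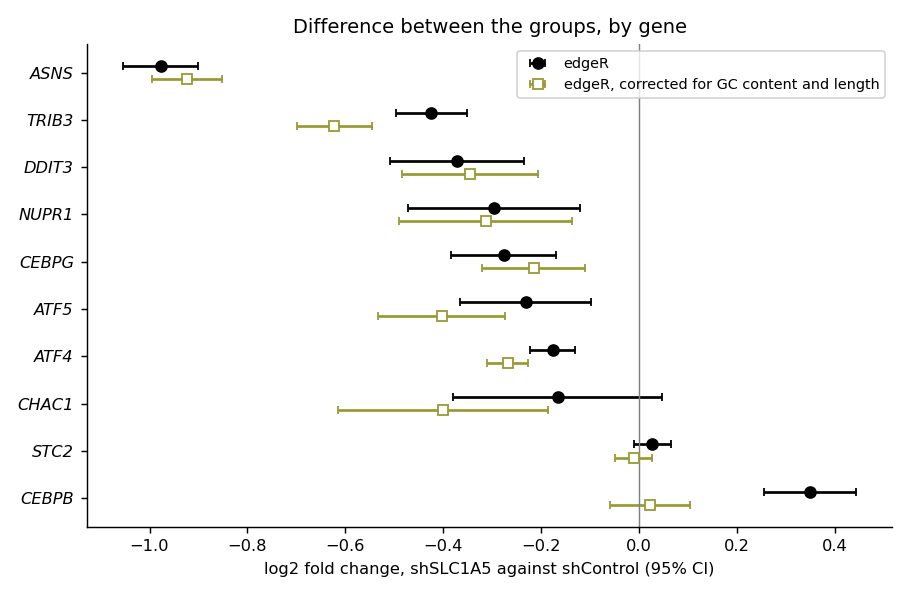
Log2 fold change of each of the 10 genes, shSLC1A5 against shControl, with 95% confidence intervals; filled circles are the edgeR fit and open squares the same fit corrected for GC content and length. ASNS stands at -0.98 and -0.92, CEBPB moves from 0.35 to 0.02, and CHAC1 moves from -0.17 to -0.40.

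The 4 genes of highest GC content, CEBPB at 66.2%, CHAC1 at 62.6%, TRIB3 at 60.9% and ATF5 at 60.0%, moved furthest between the fits, all downward. CEBPG at 43.9% and ASNS at 47.0% GC moved upward, from -0.28 to -0.21 and from -0.98 to -0.92. The offsets depend on GC content and transcript length alone, so these moves follow from how the correction was built. How much of the differences between the groups goes with GC content itself was not tested.

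The order of the levels, compared per length in FPKM, was ATF4, STC2, CEBPB, TRIB3, ASNS, CEBPG, DDIT3, ATF5, CHAC1 and NUPR1 in both groups. In shControl no neighbours in this order overlapped in their ranges. In shSLC1A5 the ranges of ASNS, 12.9 to 13.7 FPKM, and CEBPG, 12.1 to 13.9 FPKM, overlapped. In shSLC1A5 the lows were spread over the libraries, with the lowest of the 3 values in replicate 1 for 4 genes, in replicate 2 for 2 and in replicate 3 for 4. In shControl it was in replicate 1 for 6 genes, in replicate 2 for 4 and in replicate 3 for 0.

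Each gene was then set against ATF4 in the same library, as the log2 ratio of their FPKM, to ask whether the others changed by the same amount. ASNS had log2 ratios of -2.21 to -2.11 in shControl and -2.98 to -2.93 in shSLC1A5, so it moved by -0.80 beyond ATF4. TRIB3 moved by -0.25 and DDIT3 by -0.20 beyond ATF4, and STC2 by 0.20 and CEBPB by 0.52 the other way. For these 5 ratios the groups did not overlap, and an exact two-sided permutation test gave p = 0.1, the smallest that 3 libraries against 3 can give, or p = 0.18 with Benjamini-Hochberg adjustment over the 9 ratios. The ratios of CEBPG, NUPR1, ATF5 and CHAC1 overlapped between the groups, with differences of -0.10, -0.12, -0.06 and 0.01 and exact permutation p-values from 0.2 to 0.6. With 3 libraries a group this permutation test cannot reach 0.05, whatever the size of the difference. The ratios carry no GC correction, and the GC-corrected fit spaced the genes differently around ATF4. There the log2 fold changes were -0.27 for ATF4, -0.92 for ASNS, -0.62 for TRIB3 and -0.35 for DDIT3. They were -0.01 for STC2, 0.02 for CEBPB, -0.21 for CEBPG, -0.31 for NUPR1, -0.40 for ATF5 and -0.40 for CHAC1.

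**Figure D3:**
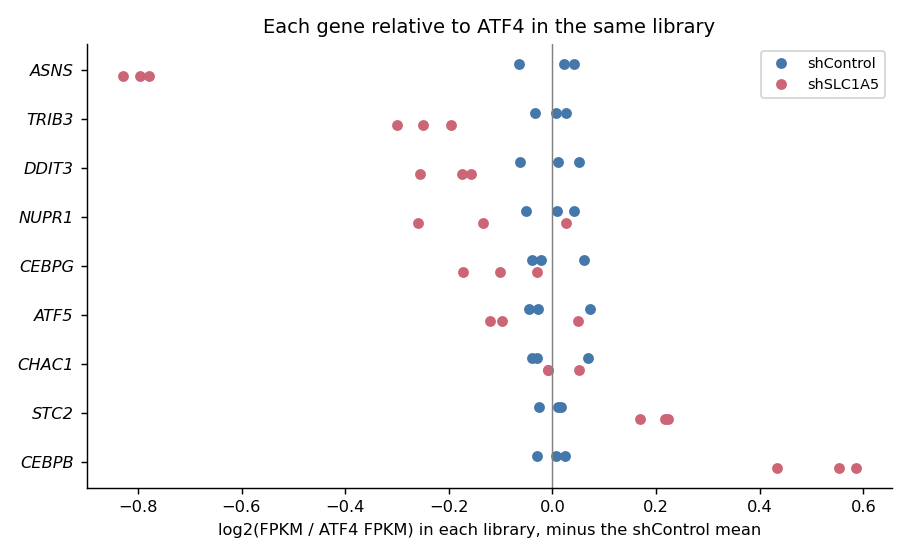
Log2 of each gene's FPKM over that of ATF4 in the same library, minus the shControl mean; each point is 1 library, 3 per group. The shSLC1A5 points of ASNS lie about 0.80 to the left of the shControl points and those of CEBPB 0.52 to the right, while those of CHAC1 and ATF5 fall among them.

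The other genes of the pathway were taken in 8 lists of 94 genes, of which 92 were found and 85 tested. Of the 85, 46 fell (54.1%) and 9 rose (10.6%), against 19.0% and 20.2% of all tested genes, with a median log2 fold change of -0.13. Without shSLC1A5 replicate 1, 39 fell and 8 rose. The GC-corrected fit had 46 lower and 5 higher, against 14.8% and 11.1% of all tested genes. The 46 were not all the same genes in both fits, as some lost the call and others gained it. The share that fell was highest in the lists of tRNA charging, amino acid transport and amino acid synthesis. Genes that rose were found in the lists of dimer partners, growth control, cell death and autophagy.

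Upstream of ATF4, 7 of 14 genes for eIF2 kinases, the eIF2 phosphatase and the exchange factor eIF2B fell and 0 rose, against 19.0% and 20.2% of all tested genes, with a median of -0.13. The GC-corrected fit called 4 lower and 0 higher, against 14.8% and 11.1%, with a median of -0.07, and EIF2S1 and EIF2B3 were among those that lost their calls. PPP1R15A, the stress-induced subunit that directs a phosphatase to eIF2 and is itself an ATF4 target, fell from 53.6 ± 1.19 to 42.2 ± 0.262 FPKM (SD, n = 3), by 0.36 on the log2 scale. Its constitutive relative PPP1R15B fell by 0.14 and EIF2B1, a subunit of eIF2B, by 0.16, and EIF2B1 lost its call in the GC-corrected fit (edgeR adjusted p = 0.131). Among the kinases, EIF2AK1 fell by 0.14. EIF2AK4, which senses uncharged tRNA as GCN2, was at -0.09 (edgeR adjusted p = 0.0457). That call was lost in the GC-corrected fit (edgeR adjusted p = 0.132) and without any one of the 6 libraries (0.0569 to 0.189). EIF2AK3, the kinase PERK, had a log2 fold change of -0.14 and did not pass (edgeR adjusted p = 0.260). These kinases act through their activity, which RNA levels do not report.

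Among 12 tested bZIP genes that can pair with ATF4, CHOP or their relatives, 4 rose (33.3%) and 2 fell (16.7%), with a median of 0.05. Of all tested genes 20.2% rose and 19.0% fell, so the share that fell was near the background. CEBPD, a C/EBP activator induced in acute inflammation, was at 18.1, 15.4 and 16.8 FPKM in shControl and 33.4, 31.7 and 32.7 in shSLC1A5. It rose by 0.94 on the log2 scale (SE 0.0633, edgeR adjusted p = 1.38e-06), or by 0.52 in the GC-corrected fit. Without shSLC1A5 replicate 1 its log2 fold change was 0.92. ATF3, a repressor induced downstream of ATF4, fell from 10.9 ± 0.208 to 6.94 ± 0.0695 FPKM (SD, n = 3), by 0.66 on the log2 scale. JUNB was at 0.22, with its call lost in the GC-corrected fit (edgeR adjusted p = 0.364) and without shSLC1A5 replicate 2 (0.0646). In the GC-corrected fit 1 of the 12 rose and 4 fell, against 11.1% and 14.8% of all tested genes. Of those 4, only ATF3 had been called lower in the first fit. The C/EBP genes thus had log2 fold changes of 0.94 for CEBPD, 0.35 for CEBPB and -0.28 for CEBPG, and CEBPA was below the expression minimum.

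The next 3 lists are read against the 19.0% of all tested genes that fell and the 20.2% that rose. Amino acid synthesis genes fell in 9 of 12 cases and rose in 0, with a median of -0.30. CTH, the last enzyme of cysteine synthesis from methionine, fell by 0.82 on the log2 scale. PSAT1 and PHGDH, enzymes of serine synthesis, fell by 0.74 and 0.50, PSAT1 from 102 ± 1.37 to 61.5 ± 2.02 FPKM (SD, n = 3). Amino acid transporters fell in 7 of 8 cases and rose in 0, with a median of -0.25. Of these, SLC7A11 at -0.09 and SLC3A2 at -0.06 had groups that overlapped in FPKM. Each lost its call in at least 1 fit that left out a single library (edgeR adjusted p up to 0.0583 and 0.183). SLC7A11 also lost its call in the GC-corrected fit (edgeR adjusted p = 0.449). SLC1A4, a carrier of alanine, serine and cysteine, fell by 0.63, SLC6A9, a glycine carrier, by 0.50 and SLC7A5, a leucine exchanger, by 0.37, or by 0.60 for SLC7A5 in the GC-corrected fit. Genes for tRNA charging and export fell in 13 of 14 cases and rose in 0, with a median of -0.34. GARS1, WARS1 and MARS1, the synthetases for glycine, tryptophan and methionine, fell by 0.53, 0.46 and 0.42. In the GC-corrected fit 10 synthesis, 6 transport and 14 tRNA genes fell and 0 rose. ASNS fell by more than any gene of these 3 lists.

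Of 5 tested growth and mTORC1 genes, 2 rose and 2 fell, against 20.2% and 19.0% of all tested genes. In the GC-corrected fit 1 rose and 2 fell, against 11.1% and 14.8%. DDIT4, an inhibitor of mTORC1 that low oxygen also induces, was at 16.5, 17.9 and 16.7 FPKM in shControl and 35.2, 37.5 and 36.8 in shSLC1A5, and rose by 1.09 on the log2 scale (SE 0.0426, edgeR adjusted p = 2.48e-08). GDF15, a secreted stress hormone, was at 0.47, and its call was lost in the GC-corrected fit (edgeR adjusted p = 0.166). EIF4EBP1, a repressor of cap-dependent translation, was at -0.11 (edgeR adjusted p = 0.0489). That call was lost when any one of the 6 libraries except shSLC1A5 replicate 3 was left out (edgeR adjusted p from 0.0899 to 0.157), while in the GC-corrected fit it fell by 0.43.

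Of 8 tested cell death and endoplasmic reticulum genes tied to CHOP, 3 fell (37.5%) and 2 rose (25.0%). Of all tested genes 19.0% fell and 20.2% rose, so the share that rose was near the background. In the GC-corrected fit 4 of the 8 fell and 2 rose, against 14.8% and 11.1% of all tested genes. HERPUD1, which acts in disposal of misfolded proteins, fell by 0.61 on the log2 scale, and PMAIP1, a BH3-only death protein, by 0.33, while WFS1, a membrane protein of the endoplasmic reticulum, rose by 0.39, or by 0.21 in the GC-corrected fit. TNFRSF10B, a TRAIL death receptor, had a log2 fold change of -0.05 and did not pass (edgeR adjusted p = 0.132). Of 12 autophagy genes 3 fell and 1 rose, against 19.0% and 20.2% of all tested genes, so the share that fell was near the background. The GC-corrected fit had 2 lower and 1 higher. MAP1LC3B, the autophagosome protein LC3B, fell by 0.29, ATG5 by 0.27 and ATG12 by 0.18, and ATG12 lost its call in the GC-corrected fit (edgeR adjusted p = 0.0679).

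**Figure D4:**
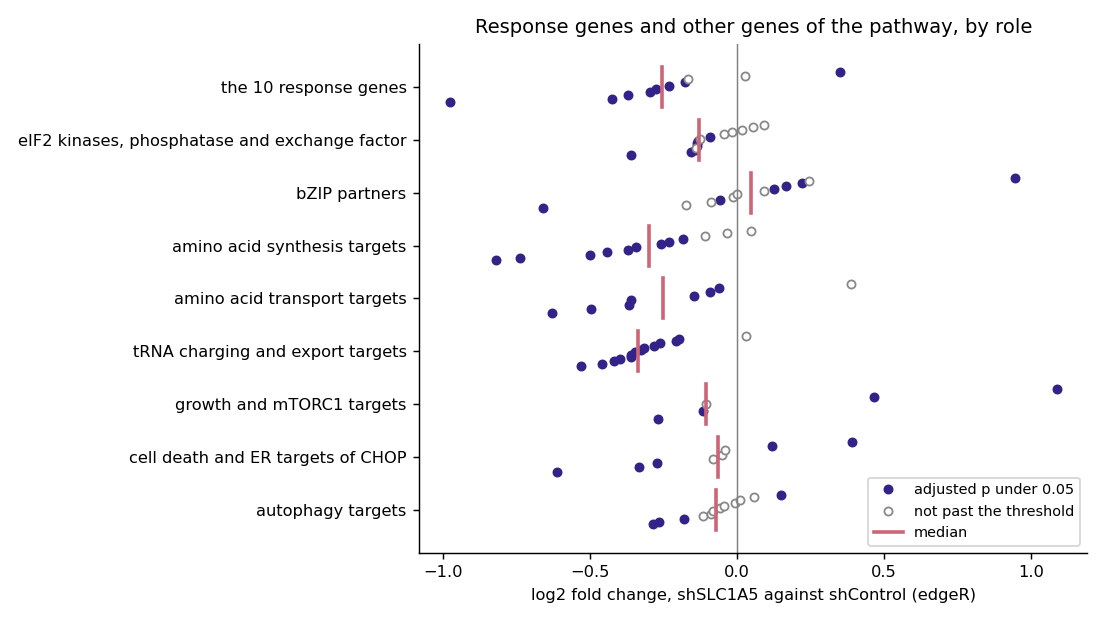
Log2 fold change of the 10 response genes and of the tested genes of the 8 pathway lists, shSLC1A5 against shControl; each point is 1 gene, filled where the edgeR adjusted p is under 0.05, and red lines are medians. The 3 amino acid supply lists have medians of -0.30, -0.25 and -0.34, and single genes such as DDIT4 at 1.09 and CEBPD at 0.94 stand to the right.

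The composite site was then compared with these calls, a comparison chosen after the calls were seen and given without a test. TGATGNAA occurred in a window of 4.47% of 27167 genes with a RefSeq window, of 3 of the 9 response genes with a window and of 16 of 75 pathway genes with one (21.3%). Of the 15 pathway genes that held it and were tested, 14 fell and 0 rose, and JDP2 was the other. Of the 55 tested pathway genes with a window but no match, 24 fell and 8 rose. Of the holders, AARS1, CARS1, GARS1, IARS1, MARS1, NARS1 and TARS1 encode tRNA synthetases, and SLC1A4, SLC3A2 and SLC7A1 amino acid transporters. PPP1R15B, ATF3, HERPUD1 and GOT1 held the site outside those lists and fell. In those lists WARS1, EPRS1, SARS1, XPOT, SLC7A5, SLC6A9 and SLC38A2 fell with a window but no match, and SLC43A1 was not called. Among such synthesis genes, PHGDH, PSAT1, MTHFD2, CTH and PCK2 fell, and CBS and ALDH18A1 were not called. Most holders came from these amino acid supply lists, so the contrast over all pathway genes does not separate the site from the list. A difference within the lists was not tested.

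The match also went with lower calls outside these genes. Of 205 other tested genes that held it, 65 fell (31.7%) and 27 rose (13.2%), while of 8309 without it 1673 fell (20.1%) and 1772 rose (21.3%). In the GC-corrected fit the shares that fell were 26.3% and 15.4%, and those that rose 9.27% and 11.7%. With the stricter TGATGCAA, 14 of 47 other genes that held it fell (29.8%) and 8 rose (17.0%). Most genes that held the match did not fall. Among the response genes, ASNS and CEBPG held it and fell, CHAC1 held it and did not pass the threshold, and TRIB3, DDIT3, ATF5 and ATF4 fell with no match in these windows.

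**Figure D5:**
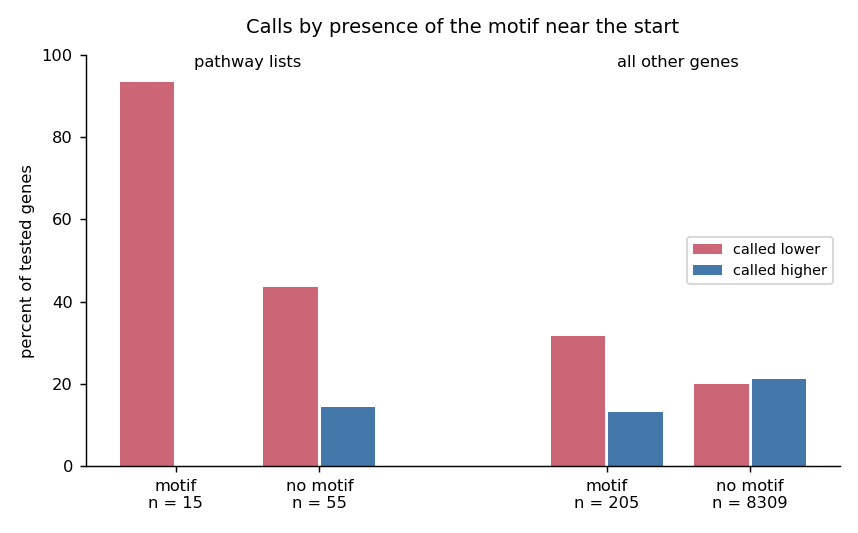
Percent of tested genes called lower or higher in shSLC1A5, by presence of the composite site near an annotated start, for the pathway lists and for all other genes outside these lists and the 10 response genes. Of pathway genes with the site 93.3% were lower against 43.6% without it, and of other genes 31.7% against 20.1%. Pathway genes with the site came mostly from the amino acid supply lists, where most genes without it also fell. The pathway contrast therefore does not separate the site from the list.

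For ASNS, CHAC1 and ATF4, the 5 tested genes whose log2 depth-scaled counts ran most alike over the 6 libraries were listed, by the root mean square difference after centring each gene on its mean. Among those nearest to ASNS were FDFT1 at 0.0372, KRT81 at 0.0457 and SQLE at 0.0503. Nearest to ATF4 were TPT1, LINC00942, CANX, HSPA5 and EIF4B, at 0.0107 to 0.0136, and nearest to CHAC1 were GCC1, DDX1, SKA2, DPAGT1 and GXYLT1, at 0.0107 to 0.0196. Their log2 fold changes were -1.02 for FDFT1, -1.04 for KRT81 and -0.996 for SQLE, -0.19 to -0.16 for the ATF4 set and -0.17 to -0.14 for the CHAC1 set.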

How the data were processed

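Poly(A) RNA of 6 T98G libraries was read as paired ends on an Illumina instrument, per the labels' protocols. fastp, HISAT2 and StringTie are named in the submitters' processing notes, while no source used here names the build, annotation, strand setting or treatment of multi-mapped reads. The authors deposited counts per gene and FPKM in 1 table, per the file headers. Columns were matched by number and by NC for the control, and 0 were left unmapped. Of the 34674 IDs found in GENCODE 29 (GRCh38), 99.8% lie on the same locus.

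Counts were tested with edgeR 4.0.16 in R 4.3.3 (TMM, group alone, quasi-likelihood F test, Benjamini-Hochberg over all genes averaging 1 FPKM or more, threshold 0.05). The SE is the log2 fold change divided by the square root of F. For the GC-corrected fit, loess curves (span 0.3) of each library against the GC content and length of a gene's longest transcript entered as offsets. DESeq2 1.42.0, limma 3.58.1 on log2 values with pseudocounts of 1 and 0.1 FPKM, other filters and scalings, a block on replicate number and leaving out single libraries were alternatives. Libraries of a group differed by 9.82 to 16.7 times counting noise per gene, so no pair agreed within counting noise, which does not show separate cultures. How the counts were derived from the reads is not stated, and that ratio takes them as read counts. After the main fit, edgeR was also run on counts simulated from the mean levels and fitted dispersions of these genes, with known changes. It recovered 29.9% of log2 changes of 0.25, 73.1% of those of 0.5 and 95.5% of those of 1. Of unchanged genes it called 0.0601%. A gene that did not pass may thus have a small change.

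The 10 genes, the lists and the alternatives were chosen with earlier results of these data known. Named were the 10 genes, up to 3 called genes of largest change with groups apart per list, and the 5 genes most alike to ASNS, CHAC1 and ATF4, of which some are not reported here. EIF2AK1, EIF2AK3, EIF2AK4, TNFRSF10B, CEBPA, JDP2, EIF2S1, EIF2B3, SLC7A11, overlapping genes and holders of the composite site were named after their values were seen. So were further genes of the amino acid supply lists that had a window but no match. Of 5 T cell and 6 macrophage markers, 3 and 4 were found, with sums up to 0.0538 and 1.61 FPKM. Promoter windows are from RefSeq (GRCh38.p14). The exact tests used scipy 1.17.1.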

Additional observations from a re-analysis of the deposited data

How the results depend on the processing

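ATF4, DDIT3, ATF5, CEBPG, ASNS and TRIB3 kept their direction and call under all 17 alternatives. In the GC-corrected fit, 3071 of all tested genes passed, 1319 of them higher, 0 response genes rose, their median was -0.33, 5 pathway genes rose, and STC2 turned to -0.011. With that correction and a replicate block together, the values were 2928, 1237, 0, -0.33, 5 and -0.011. In both, CEBPB lost its call and CHAC1 gained one. With quantile normalization and with a mean of at least 5 FPKM, 2 response genes rose, STC2 being the second. NUPR1 and CHAC1 were not tested at that minimum. With limma on log2(FPKM + 1) the median was -0.21. The stricter TGATGCAA took the share of all windows with a match from 3.62% to 0.87%. NUPR1 lost its call with no filter on low values (edgeR adjusted p = 0.0518). Where no value above shows it, the cause was not tested.

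Leaving out 1 library at a time gave 3867 to 4082 genes, 6 to 7 response genes lower, and differences of the ratio of CHAC1 to ATF4 from -0.0085 to 0.0458, which is reversed without shControl replicate 2 or 3 or shSLC1A5 replicate 1. With the replicate number as a block and no correction, 4470 genes passed, and 7 response genes fell and 1 rose. Deviations of same-numbered libraries correlated at -0.15, 0.036 and -0.034, and not every library correlated best with its own number, so the numbers were not taken as pairs. The counts of CHAC1 and NUPR1 limit what could be seen of small changes in them.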
